A study of Homo sapiens with 21 samples.

Results

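The 9 genes described here make, carry, sense or break down retinoic acid, the hormone-like acid that cells derive from vitamin A. They are STRA6, RDH10, DHRS3, CRABP2, RARA, RARB, RARG, CYP26A1 and CYP26B1. They are 9 of the 56632 genes in the deposited count tables. They were chosen by pathway, and the group was selected on 1 measured value: CYP26A1 differs strongly between drug-tolerant PC9 and drug-tolerant HCC827 cells. Each name matched 1 entry of the tables.

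The libraries are polyadenylated RNA of 5 human cell lines, 21 libraries in 9 groups, each line having a single library of a condition. Mutant EGFR drives the lung adenocarcinoma lines PC9 and HCC827, which are, per the labels, free of the gatekeeper resistance mutation. H1975 and PC9ER carry that mutation, and AALE is an immortalized tracheobronchial epithelial line. PC9 and HCC827 were sequenced as parental cells, labelled sensitive to both drugs, as cells tolerant to gefitinib after 14 days at 40 nM, and as cells tolerant to osimertinib after 14 days at 20 nM. Both drugs inhibit EGFR, gefitinib reversibly and osimertinib covalently. For the parental libraries the labels give no dose, so 14 days of drug and the tolerant state cannot be told apart. AALE, HCC827 and PC9 were also sequenced with scrambled, miR-147b or miR-21 overexpression, and H1975 and PC9ER with control, miR-147b or miR-21 knockdown. The labels describe infection with lentivirus and puromycin selection without naming the arms that had them, and do not give the knockdown reagent. The EGFR-mutant lines grew in DMEM with serum, and AALE in SAGM, a serum-free airway medium whose usual supplements include retinoic acid. A 3D organoid culture with B27 supplement is also described, and no library is labelled as 2D or 3D. Nothing states that any arm came from more than 1 culture, so p-values measure only the spread between these libraries, which may be technical.

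Retinol enters a cell through STRA6, a membrane receptor for the plasma retinol carrier. RDH10 oxidizes retinol to retinal, DHRS3 reduces retinal back to retinol, and aldehyde dehydrogenases of the ALDH1A family turn retinal into retinoic acid. CRABP2 hands retinoic acid to the nuclear receptors RARA, RARB and RARG, which pair with retinoid X receptors on direct repeats of a short half-site. The hydroxylases CYP26A1 and CYP26B1 clear retinoic acid. Several of these genes are themselves induced by retinoic acid, RARB and CYP26A1 through such repeats in their promoters and DHRS3 and STRA6 in many cultured cells. In airway epithelium retinoic acid is known for holding back squamous differentiation, and silencing of RARB is well known in lung cancer.

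Expected counts, the estimated reads per gene, summed to between 15516460 and 29694050 per library (median 22026253). Levels are given as CPM, a gene's expected count scaled to the total of its library. The 5 epithelial markers EPCAM, CDH1, KRT8, KRT18 and KRT19 summed to 2164 CPM or more in every library. The 4 leukocyte markers PTPRC, CD3E, CD14 and CD79A summed to 26.3 CPM or less. CD3E stayed below 1 CPM. CD79A reached 19.7 CPM in control knockdown H1975, and CD14 reached 14.3 and PTPRC 2.83 CPM in gefitinib-tolerant PC9. Their sum was 2, 18 and 3.81 CPM in parental, gefitinib-tolerant and osimertinib-tolerant PC9. The endothelial markers VWF and CDH5 summed to 34.8 to 60.9 CPM in PC9 and to 11.5 CPM or less in the other lines. The 4 alveolar or lung adenocarcinoma markers NKX2-1, NAPSA, SFTPB and SFTPC were all below 1 CPM in every PC9, PC9ER and AALE library. The parental HCC827 library stood apart from its line mates, with a mean correlation of 0.913 to the tolerant HCC827 libraries across genes, and the PC9ER miR-21 knockdown library had 0.945 to the other PC9ER libraries. All other libraries had 0.948 to 0.987.

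In parental cells the members spanned a wide range of levels per length of exon, a scale on which genes can be set side by side. In parental PC9, CRABP2 stood highest at 51.9 CPM per kilobase and CYP26A1 lowest at 0.0499 CPM per kilobase. DHRS3 (15.7), RARG (13.0), STRA6 (11.8), RARA (9.08) and RDH10 (5.19 CPM per kilobase) lay between, above CYP26B1 (1.36) and RARB (0.461 CPM per kilobase). In HCC827 without drug CYP26A1 reached its highest level in the series, 4.63 CPM per kilobase. The annotated exons of STRA6, RARA, RARB and RDH10 overlap genes on the opposite strand over 0.757% to 17.9% of their length, and 25.2% of CYP26A1 overlaps a noncoding RNA on the same strand. No source used here gives the strand setting of the counting, so reads in those stretches cannot be assigned for certain.

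CYP26A1 moved to nearly the same level from opposite sides in the tolerant cells. In PC9 it stood at 0.148 CPM in the parental, 2.52 in the gefitinib-tolerant and 4.71 CPM in the osimertinib-tolerant library, on 4, 64 and 89 expected counts. In HCC827 it stood at 13.8 CPM in the parental, 2.66 in the gefitinib-tolerant and 2.83 CPM in the osimertinib-tolerant library, on 313, 70 and 69 expected counts. Both tolerant PC9 libraries were above their parental library and both tolerant HCC827 libraries below theirs, and the 4 tolerant libraries lay within 2.52 to 4.71 CPM. The ratio to the parental library was 17.0 in gefitinib-tolerant PC9 (95% exact interval 6.33 to 64.4, counting error only) and 31.8 in osimertinib-tolerant PC9 (12 to 119). In HCC827 CYP26A1 was 5.18-fold lower with gefitinib tolerance (3.98 to 6.81) and 4.87-fold lower with osimertinib tolerance (3.74 to 6.42). The log2 change with tolerance was -6.81 ± 0.76 (SE) in HCC827 minus PC9, given with no test because this contrast selected the genes. In bulk libraries, fewer cells with a transcript and less of it per cell cannot be told apart. The 5 fibroblast markers also summed higher in tolerant cells, at 15.3, 88.6 and 134 CPM in parental, gefitinib-tolerant and osimertinib-tolerant HCC827. Most of this was COL1A1, at 14.7, 85.7 and 131 CPM. LUM had 0.088, 1.48 and 1.97 CPM and DCN 0.131, 1.05 and 0.854 CPM, while COL1A2 and PDGFRB stayed below 1 CPM. In PC9 the 5 fibroblast markers summed to 21.2, 28.0 and 78.4 CPM, and all but COL1A1 were below 1 CPM. The 5 epithelial markers summed to 6758, 4557 and 4513 CPM in HCC827 and to 7144, 8613 and 7961 CPM in PC9, and their part in these results was not tested.

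CYP26B1, the second retinoic acid hydroxylase, followed another course. In PC9 it stood at 6.82 CPM in the parental, 5.48 in the gefitinib-tolerant and 21.1 CPM in the osimertinib-tolerant library. In HCC827 the same 3 libraries had 2.42, 5.47 and 9.42 CPM. Osimertinib-tolerant cells were the highest of each line, and gefitinib-tolerant cells were above their parental library in HCC827 alone. With osimertinib tolerance edgeR's quasi-likelihood test gave CYP26B1 a log2 fold change of 1.58 ± 0.48 (SE, 2 lines, Benjamini-Hochberg adjusted p = 0.198), and 1.24 ± 0.48 in osimertinib-tolerant minus gefitinib-tolerant cells (adjusted p = 1).

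**Figure D1:**
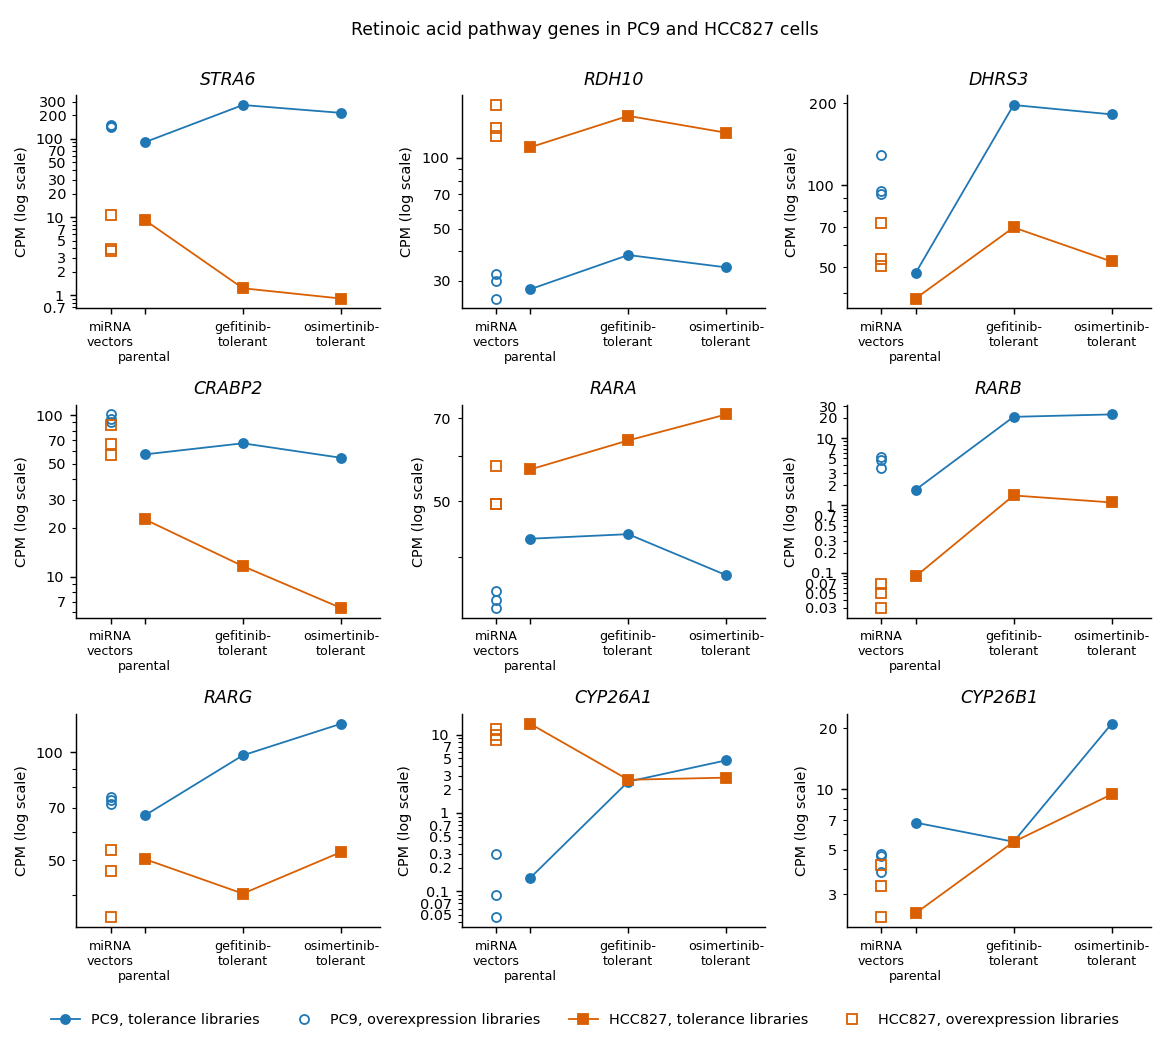
Levels of the 9 genes (CPM, log scale) in parental, gefitinib-tolerant and osimertinib-tolerant PC9 (blue circles) and HCC827 (orange squares), 1 library a point, with the 3 overexpression libraries of each line as open symbols, where RARB at 0 CPM in 1 HCC827 library is drawn at 0.03. CYP26A1 converges on 2.52 to 4.71 CPM in tolerant cells, RARB is higher in all 4 tolerant libraries, and STRA6 parts between the lines.

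RARB, a retinoic acid receptor and itself a target of retinoic acid, was higher in all 4 tolerant libraries. In PC9 it stood at 1.71 CPM in the parental, 20.8 in the gefitinib-tolerant and 22.6 CPM in the osimertinib-tolerant library. In HCC827 it stood at 0.088, 1.41 and 1.11 CPM, the parental value resting on 2 expected counts. The ratio to parental cells was 12.2 (95% exact interval 9.01 to 16.9) and 13.3 (9.76 to 18.4) in PC9, and 16 (4.12 to 137) and 12.6 (3.16 to 109) in HCC827. The levels of the lines did not meet: the highest HCC827 library, at 1.41 CPM, stayed under the parental PC9 library. The edgeR log2 fold change was 3.62 ± 0.40 (SE, n = 2 lines) with gefitinib tolerance (adjusted p = 0.223) and 3.46 ± 0.40 with osimertinib tolerance (adjusted p = 0.17), so neither passed the threshold of 0.05. DESeq2 called RARB in both (adjusted p = 2.1e-07 and 6.07e-07), and so did edgeR without the parental PC9 library (adjusted p = 0.0236 and 0.0239). In that fit HCC827 alone gives the difference, from a parental library with 2 RARB counts, and 16.5% and 18.4% of all genes were called.

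The other receptors varied less. RARA stood at 43.0, 43.8 and 37.1 CPM in parental, gefitinib-tolerant and osimertinib-tolerant PC9, and the HCC827 values were 56.9, 64.0 and 71.1 CPM. RARG stood at 66.6, 98.0 and 120 CPM in PC9, against 50.3, 40.3 and 52.6 CPM in HCC827. No RARA or RARG value was past 2-fold from its parental library.

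RARB and CYP26A1 are also the members with a direct repeat of the receptor half-site near a transcription start. Promoter windows of 300 bases (250 before and 50 after a RefSeq start, GRCh38.p14) were available for 8 members, 20 windows in all. They were searched on both strands for pairs of half-sites with a spacer of 1, 2 or 5 bases. The half-sites were 4 forms of the textbook consensus, namely AGGTCA as the usual form, then AGTTCA as a variant, and also GGGTCA as another variant, together with GGTTCA as the last. A repeat with a spacer of 5 bases, called DR5, lay in 1 window of RARB and 1 window of CYP26A1, and in 31 of all 35116 windows (0.0883%). Both are known elements whose half-sites are of these forms, so their matches are shown for their letters and nothing is read from the share. No member window held a spacer of 1 or 2 bases. With only the AGGTCA form and the AGTTCA form allowed, 1 member window and 0.0199% of all windows held a DR5. Both matches are shown with 6 bases on each side, 5′ to 3′ on the strand of the gene, the repeat in capitals. The RARB repeat (chr3:25428204-25428232, plus strand) lies 53 to 37 bases before a start. The CYP26A1 repeat (chr10:93073797-93073825, plus strand) is read on the opposite strand, lies 90 to 74 bases before the start of the shorter transcript and falls inside the first exon of the longer one.
RARB: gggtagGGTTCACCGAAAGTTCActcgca
CYP26A1: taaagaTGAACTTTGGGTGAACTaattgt

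Of the genes upstream of the receptors, STRA6 changed in the directions of CYP26A1, but its levels in the lines moved apart rather than together. In PC9 it stood at 90.6 CPM in the parental, 271 in the gefitinib-tolerant and 215 CPM in the osimertinib-tolerant library. In HCC827 the same libraries had 9.15, 1.23 and 0.909 CPM. STRA6 was 3.0-fold and 2.38-fold higher in tolerant PC9, and 7.53-fold (95% exact interval 5.17 to 11.3) and 10.2-fold (6.53 to 16.5) lower in tolerant HCC827. The PC9 libraries with scrambled, miR-147b and miR-21 vectors had 150, 146 and 143 CPM, above the parental one. The log2 change with tolerance was -4.46 ± 0.39 (SE) in HCC827 minus PC9, a description of the contrast that selected the genes. CYP26A1 and STRA6 were the members at least 2-fold higher in both tolerant PC9 and at least 2-fold lower in both tolerant HCC827 libraries, a pattern of 105 of 18105 genes (0.58%). Since CYP26A1 was chosen for it, nothing is read from that share.

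Neither of the member enzymes between retinol and retinal, DHRS3 and RDH10, was lower past 2-fold in a tolerant library. AKR1B10, a listed retinol and retinal oxidoreductase that is not a member, was so in tolerant HCC827 (3.4, 1.26 and 0.505 CPM). In PC9 AKR1B10 had 66.6, 107 and 111 CPM. DHRS3 stood at 47.5 CPM in parental, 197 in gefitinib-tolerant and 182 CPM in osimertinib-tolerant PC9. The HCC827 libraries had 38.3, 69.9 and 52.4 CPM, a smaller spread. Its log2 fold change was 1.30 ± 0.40 (SE, n = 2 lines, adjusted p = 0.233, edgeR) with gefitinib and 0.99 ± 0.40 (adjusted p = 0.261) with osimertinib tolerance. As a description, the change in HCC827 minus PC9 was -1.25 ± 0.35 on the log2 scale. RDH10 stood at 27.6, 38.6 and 34.2 CPM in PC9, and HCC827 had 111, 151 and 128 CPM, with no library past 2-fold.

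CRABP2, the carrier that delivers retinoic acid to its receptors, was within 2-fold of the parental library in tolerant PC9 and lower in tolerant HCC827. In gefitinib-tolerant HCC827 it was near the 2-fold limit, with a log2 ratio of -1.02 on scaled CPM and -0.96 by plain library size. PC9 had 57.1 CPM in parental, 66.9 in gefitinib-tolerant and 54.4 CPM in osimertinib-tolerant cells. HCC827 had 22.6, 11.6 and 6.39 CPM, and the osimertinib-tolerant library was 3.54-fold lower than its parental (95% exact interval 2.96 to 4.27). With osimertinib tolerance the log2 fold change over both lines was -1.13 (adjusted p = 0.258, edgeR), and -1.80 (adjusted p = 0.0203) without the parental PC9 library, when HCC827 alone gives the difference.

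Against the parental library, the members past 2-fold in tolerant PC9 were all higher, and those in tolerant HCC827 went both ways. With the scrambled library as control, DHRS3 and STRA6 were no longer past 2-fold in tolerant PC9. CRABP2 had a log2 ratio of -1.09 with osimertinib tolerance, though its 54.4 and 101 CPM are within 2-fold. Scaling was set within each experiment, so ratios to the scrambled library may hold an offset. A value counts as called here when its log2 ratio of scaled CPM passes 2-fold in a gene with 1 CPM or more in either library. In gefitinib-tolerant PC9, 4 of 9 members were higher (12.5% of all genes were) and 0 lower (6.77%). In osimertinib-tolerant PC9, 5 of 9 were higher (14.6%) and 0 lower (8.54%). In gefitinib-tolerant HCC827, 2 of 9 were higher (18.1%) and 3 lower (16.4%), and in osimertinib-tolerant HCC827 2 were higher (18.2%) and 3 lower (16%). The counts hold CYP26A1, chosen on these libraries, and both tolerant libraries of a line share 1 parental library. With the cell line as a block, edgeR called 0 of 9 members and 0% of 19837 genes with gefitinib tolerance, and 0 of 9 and 0% with osimertinib tolerance. At an unadjusted p under 0.05 it had 3468 and 3924 genes, and DESeq2 called 1338 and 1761 genes at an adjusted p under 0.05. Between the drugs edgeR called 0% (198 genes at an unadjusted p under 0.05, 7 called by DESeq2).

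**Figure D2:**
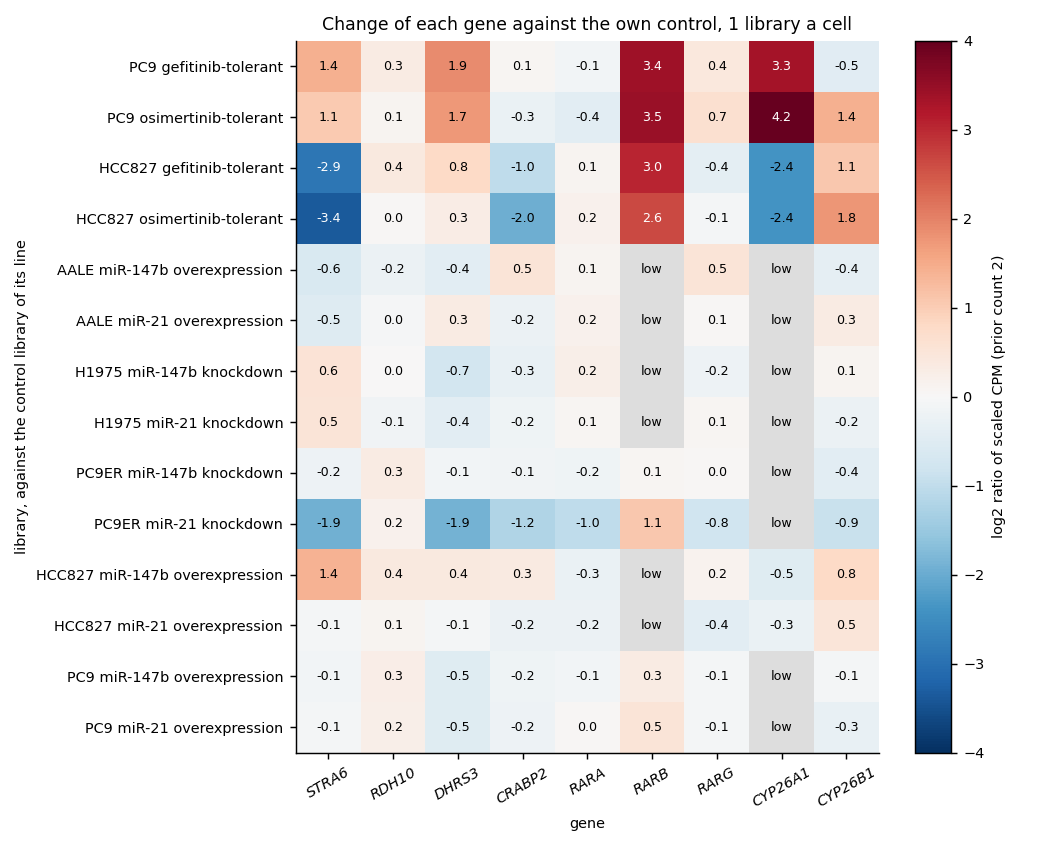
Log2 ratio of TMM-scaled CPM (prior count 2) of each gene (columns) in each tolerant, overexpression or knockdown library (rows) against the control library of its line, with grey cells where both libraries are under 1 CPM. RARB is high in the 4 tolerant rows, CYP26A1 and STRA6 change sign between PC9 and HCC827, and the PC9ER miR-21 knockdown row stands apart from the other knockdown rows.

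Drug-free libraries of the same lines from the overexpression experiment give a second look at the parental levels. Parental PC9 lay below the PC9 scrambled library for DHRS3 (47.5 and 129 CPM), STRA6 (90.6 and 150 CPM) and RARB (1.71 and 3.64 CPM). Parental HCC827 lay below its scrambled library for CRABP2 (22.6 and 65.8 CPM) and above it for STRA6 (9.15 and 3.87 CPM). Against the scrambled library, the log2 ratio of DHRS3 in tolerant PC9 was 0.47 and 0.30 in place of 1.90 and 1.74, and that of STRA6 was 0.71 and 0.33 in place of 1.44 and 1.05. RARB had 2.35 and 2.42 in tolerant PC9, and CYP26A1 had 3.77 and 4.60. In tolerant HCC827 CYP26A1 had -2.17 and -2.17, STRA6 -1.66 and -2.14, CRABP2 -2.56 and -3.50, and RARB 4.04 and 3.63. CRABP2 was also lower than the scrambled library in tolerant PC9, at -0.74 with gefitinib and -1.09 with osimertinib tolerance. By CPM the osimertinib-tolerant value, 54.4 against 101, was within 2-fold. The scrambled libraries carry a vector and belong to another experiment, whose part in these differences was not tested. TMM factors were set within each experiment, so these log2 ratios may hold an offset between experiments.

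Both tolerant libraries lay above all 4 drug-free PC9 libraries for 6 members, namely CYP26A1, DHRS3, RARB, RARG, STRA6 and RDH10 (32.2% of genes did), and below them for 0 (15.9%). In HCC827 they lay above for CYP26B1, RARA and RARB (36.1% of genes) and below for CYP26A1, CRABP2 and STRA6 (25.9%). These counts hold CYP26A1, chosen on the tolerance libraries, and use CPM without TMM scaling. RDH10 had 34.2 CPM in osimertinib-tolerant PC9 and 31.9 CPM in PC9 with miR-147b. With TMM factors, which were set within each experiment, their log2 ratios to scrambled PC9 were 0.25 and 0.28. These factors share no scale across experiments, so they do not settle whether RDH10 lay above all drug-free PC9 libraries. CYP26A1 ranged from 0.0464 to 0.30 CPM in drug-free PC9 and from 8.65 to 13.8 CPM in drug-free HCC827, so the tolerant libraries of both lines sat between the 2 ranges. RARB ranged from 1.71 to 5.34 CPM in drug-free PC9 and from 0 to 0.088 CPM in drug-free HCC827. DHRS3 in tolerant HCC827, at 69.9 and 52.4 CPM, lay inside its drug-free range of 38.3 to 72.8 CPM.

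The other genes with a promoter DR5 are described by their levels in the tolerant cells. The 31 windows belong to 29 gene names, 16 of which were found in the tables and 12 of which reached 1 CPM in a tolerance library. Besides CYP26A1, which was chosen for it, TRIM31 and BATF2 were at least 2-fold higher in both tolerant PC9 and lower in both tolerant HCC827 libraries. TRIM31 encodes a ubiquitin ligase and BATF2 a transcription factor induced by interferon. TRIM31 stood at 0.26, 10.8 and 5.58 CPM in parental, gefitinib-tolerant and osimertinib-tolerant PC9, and the same HCC827 libraries had 34.5, 8.4 and 9.31 CPM. The other drug-free HCC827 libraries had 10.4 CPM with scrambled, 31.1 with miR-147b and 12.4 CPM with miR-21 vectors. The tolerant HCC827 values were thus close to the scrambled one. With these vectors PC9 had 1.36, 1.91 and 1.38 CPM of TRIM31, below both tolerant PC9 libraries. BATF2 stood at 0.519, 1.74 and 1.64 CPM in PC9, against 10.9, 2.66 and 3.11 CPM in HCC827. Against the parental libraries alone, both shared the directions of CYP26A1, past 2-fold in all 4 tolerant libraries, as 0.58% of all genes did. BATF2 was not set against the other drug-free libraries. The other 9 did not pass 2-fold in this way. RARB is among them, and FSCN2, which encodes an actin-bundling protein, was also higher in all 4 tolerant libraries (0.482, 1.54 and 2.12 CPM in PC9, then 0.308, 1.71 and 1.27 CPM in HCC827). COL24A1, a collagen gene, was higher in tolerant HCC827, at 1.28, 4.05 and 4.97 CPM. CYB5R2 shared the directions of CYP26A1 but was not 2-fold lower in both tolerant HCC827 libraries. It had 3.05, 7.57 and 6.13 CPM in PC9 and 1.32, 0.635 and 0.96 CPM in HCC827. PRSS27 had 2.82, 6.75 and 4.76 CPM in PC9 and 1.41, 1.26 and 1.96 CPM in HCC827. PANK2, PHF8, ATXN1L and CFLAR were within 2-fold of parental in all 4 tolerant libraries. All of these genes were named with their values known. The TRIM31 match (chr6:30113268-30113296, minus strand) lies 200 to 184 bases before its start and is read on the opposite strand, and that of BATF2 (chr11:64990284-64990312, minus strand) lies 29 to 13 bases before its start. A match of letters shows no binding.
TRIM31: ttgcagTGAACTGGCTGTGACCTttcagt
BATF2: aagcagAGTTCATGTGAGGGTCAggaagg

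TRIM31 was also among the genes most like CYP26A1 in level, a likeness that includes the tolerance libraries and so is no separate evidence of its course. Over the log2 CPM of the 21 libraries, the 5 genes most like CYP26A1 among 12794 with 10 CPM or more in a library were CARD14 (Pearson r = 0.943), NONO (0.906), NR5A2 (0.902), BAMBI (0.898) and TRIM31 (0.894). The 21 points are not independent, since HCC827 gives 6 of them and these genes are high there, so the values are a description. CARD14, a scaffold of NF-kB signalling, spanned 2.19 to 12.3 CPM, and the nuclear receptor NR5A2 0.371 to 90.3 CPM. Of the 5, CARD14 and TRIM31 were higher in both tolerant PC9 and lower in both tolerant HCC827 libraries than in the parental ones, TRIM31 past 2-fold in each. CARD14 had 6.75 and 11.1 CPM in gefitinib-tolerant and osimertinib-tolerant HCC827. The HCC827 overexpression libraries had 8.9, 12.3 and 7.96 CPM, so its osimertinib-tolerant value lay inside the drug-free range. BAMBI, a decoy receptor of the TGF-beta family, was higher in tolerant HCC827 (49.7 CPM parental, 121 and 106 tolerant). NR5A2 stood at 41.9 CPM in parental and at 52.8 and 12.9 CPM in tolerant HCC827. Among members, CYP26A1 correlated most with RDH10 (r = 0.724), and RARG with STRA6 at 0.776.

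Against the parental library, genes known to respond to retinoic acid were often past 2-fold higher in tolerant PC9. In tolerant HCC827 their shares lay closer to those of all genes. The list holds 27 genes known from cultured cells, 6 of them members, written from general knowledge. Without the members, 9 of 17 measured genes were at least 2-fold higher and 1 lower in gefitinib-tolerant PC9, and 8 of 17 higher and 2 lower in osimertinib-tolerant PC9. Over all genes 12.5% and 14.6% were higher and 6.77% and 8.54% lower in those libraries. In HCC827, 4 of 17 were higher and 3 lower with gefitinib tolerance, and 5 of 18 higher and 3 lower with osimertinib tolerance, beside 18.1% and 18.2% higher and 16.4% and 16% lower over all genes. RARRES1, a retinoid-induced membrane protein, stood at 9.45 CPM in parental PC9 and at 56.7 and 27.6 CPM in tolerant cells, with 0.229, 2.28 and 2.7 CPM in HCC827. ELF3, an epithelial ETS factor, had 54.8, 313 and 301 CPM in PC9 but 438, 414 and 489 CPM in HCC827, where the parental library was already high. ICAM1, an adhesion molecule, had 81.4, 325 and 295 CPM in PC9 and less contrast in HCC827, with 286, 486 and 379 CPM. NEDD9, a scaffold of integrin signalling, was higher in all 4 tolerant libraries, with 59.7, 220 and 371 CPM in PC9 and 8.12, 179 and 157 CPM in HCC827. These 4 genes were named for their values in the tolerant libraries. The counts of the list rest on the parental libraries alone. In the PC9 overexpression libraries RARRES1 had 21.2, 25.1 and 30.5 CPM, so its osimertinib-tolerant value lay inside the drug-free range. ELF3 had 144, 138 and 136 CPM there and ICAM1 122, 115 and 130 CPM, between the parental and tolerant values. NEDD9 had 48.6, 51 and 56.7 CPM, below its parental value. Over both lines the list had a median log2 fold change of 0.86 with gefitinib and 0.91 with osimertinib tolerance (0.046 and 0.036 over all genes), and edgeR called 0 of its 26 tested genes. Many of these genes also answer to other signals, so the list does not measure retinoic acid.

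**Figure D3:**
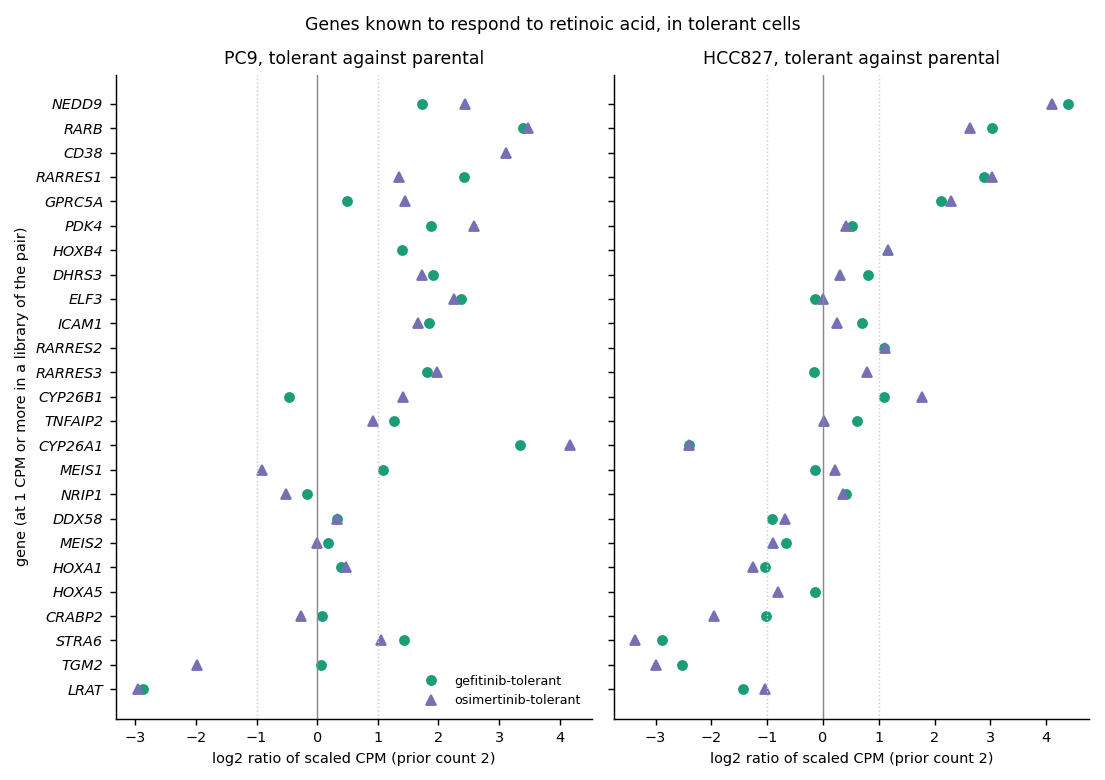
Log2 ratio of TMM-scaled CPM (prior count 2) of listed retinoic acid response genes in gefitinib-tolerant (circles) and osimertinib-tolerant (triangles) PC9 and HCC827 against the parental library, dotted lines marking 2-fold. RARB, NEDD9 and RARRES1 lie to the right in both lines, LRAT to the left in both, and CYP26A1 and STRA6 on opposite sides.

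Other pathway genes differed in direction. LRAT, which esterifies retinol for storage and is also retinoid-induced, stood at 23.6 CPM in parental PC9 and at 3.48 and 3.37 CPM in its tolerant libraries, with 1.23, 0.427 and 0.625 CPM in HCC827. In the overexpression libraries LRAT had 20.2, 21.9 and 22.6 CPM in PC9. In those of HCC827 it had 0.172, 0.403 and 0.145 CPM, below both tolerant HCC827 values. FABP5, a carrier that can take retinoic acid to another receptor, had 32.5, 5.19 and 7.34 CPM in PC9 and 76.7, 36.0 and 24.3 CPM in HCC827, lower in all 4 tolerant libraries. BCMO1, which cleaves carotene to retinal, was higher in all 4, with 0.297, 2.21 and 2.86 CPM in PC9 and 3.39, 12.1 and 15.7 CPM in HCC827. Of the enzymes that make retinoic acid, ALDH1A3 was the most abundant, with 319, 326 and 637 CPM in PC9 and 54.3, 127 and 118 CPM in HCC827. The HCC827 overexpression libraries had 117, 145 and 99.3 CPM of ALDH1A3, so both tolerant HCC827 values lay inside the drug-free range. ALDH1A1 was listed at 0 CPM in parental HCC827, at 84.4 in the gefitinib-tolerant and at 1.52 CPM in the osimertinib-tolerant library, so its high value is that of 1 library. The HCC827 overexpression libraries had 2.75, 4.07 and 3.07 CPM of ALDH1A1, above the osimertinib-tolerant one. CRABP1 was below 0.1 CPM in all 21 libraries. None of the 12 uptake and storage genes, 14 oxidoreductases or 14 receptors and partners tested passed in edgeR with either drug.

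Between lines without drug, most members differed. In the overexpression libraries, with the 3 vectors as repeats of a line, edgeR called 8 of 9 members in HCC827 minus PC9, where 62% of all genes were called. CYP26A1 stood at 11.8, 8.65 and 9.95 CPM with scrambled, miR-147b and miR-21 vectors in HCC827, against 0.0888, 0.0464 and 0.30 CPM in PC9. Its log2 fold change was 6.16 ± 0.51 (SE, n = 3 libraries per line, edgeR), given as a description. The parental levels of these lines, 13.8 and 0.148 CPM, were part of the contrast that selected it. The 8 called members include it. RARB went the other way between the lines, at 0, 0.0674 and 0.0495 CPM in HCC827 and 3.64, 4.82 and 5.34 CPM in PC9, with -6.61 ± 0.63 (adjusted p = 1.35e-05, edgeR with Benjamini-Hochberg adjustment). STRA6 stood at 3.87, 10.5 and 3.72 CPM in HCC827, against 150, 146 and 143 CPM in PC9, with -4.70 ± 0.31 (adjusted p = 1.43e-06). RDH10 stood at 124, 168 and 134 CPM in HCC827, against 25.2, 31.9 and 29.9 CPM in PC9, with 2.27 ± 0.14 (adjusted p = 7.3e-07). DHRS3, RARG and CRABP2 were lower in HCC827 by less than 2-fold and RARA higher, while CYP26B1 had -0.48 (adjusted p = 0.152). CRABP2, at -0.51 (adjusted p = 0.0107), had adjusted p = 0.0523 without the HCC827 scrambled and 0.0532 without the HCC827 miR-21 library. It had 0.0578 and 0.0728 without the scrambled and miR-21 libraries of PC9. LRAT, which stores retinol as esters, was lower in HCC827 by far, at a log2 fold change of -6.41 ± 0.29 (adjusted p = 1.11e-07).

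**Figure D4:**
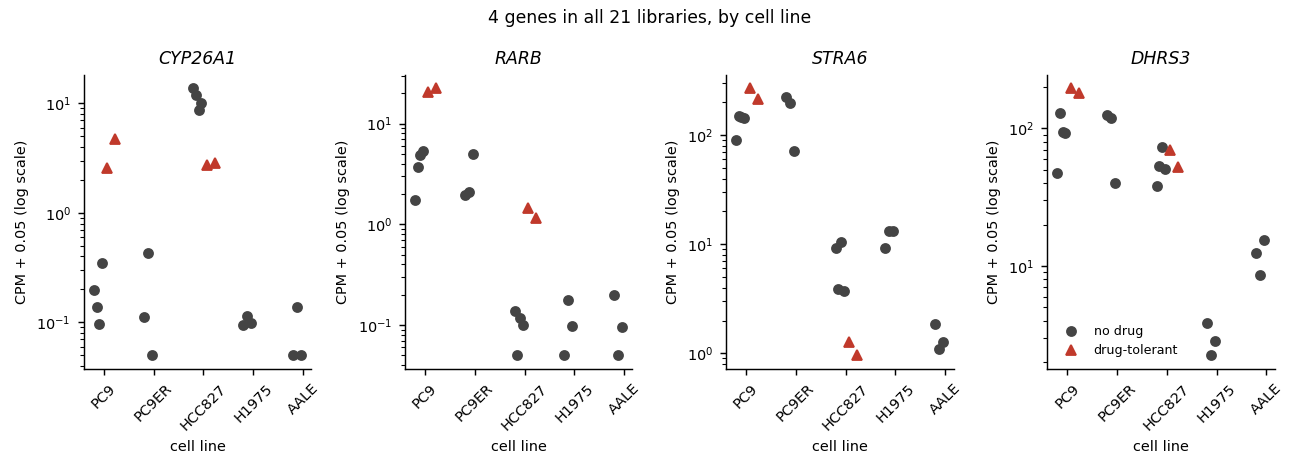
Levels of 4 genes (CPM + 0.05, log scale) in all 21 libraries by cell line, drug-free libraries as dark circles and drug-tolerant libraries as red triangles. CYP26A1 is high in drug-free HCC827 and near 0 in the other drug-free lines, RARB is high in PC9 and PC9ER, and DHRS3 is lowest in H1975.

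AALE had low levels of most members. CYP26A1 was listed at 0, 0.0875 and 0 CPM in AALE with scrambled, miR-147b and miR-21 vectors, and RARB at 0.147, 0 and 0.0454 CPM. STRA6 stood at 1.80, 1.05 and 1.23 CPM, DHRS3 at 12.3, 8.49 and 15.3 CPM and CRABP2 at 10.9, 14.3 and 9.13 CPM. Against the mean of HCC827 and PC9, 8 of 9 members were lower (66.3% of genes were called in either direction). The log2 fold change was -3.04 ± 0.15 for CRABP2 (adjusted p = 1.21e-07), -4.64 ± 0.34 for STRA6 (1.75e-06), -2.92 ± 0.22 for DHRS3 (1.84e-06) and -2.05 ± 0.28 for CYP26B1 (0.000107), with SE from 3 AALE and 6 other libraries. CYP26A1 had -5.20 ± 0.81 (adjusted p = 0.000301), carried by HCC827. RARB had -2.98 ± 0.89 (adjusted p = 0.0141), carried by PC9, with adjusted p = 0.0506 without the AALE miR-21 and 0.111 without the HCC827 miR-147b library. RARA (-0.41) and RDH10 (-0.49) were lower by less, and RARG had -0.20 (adjusted p = 0.165), or -0.29 (adjusted p = 0.0419) without the PC9 miR-147b library. Of the 25 response genes tested, members included, 22 were lower and 3 higher in AALE. Over all 18433 genes tested, 5891 were called lower and 6333 higher. All 4 squamous genes tested, which retinoids lower in airway or epidermal cells, were higher, KRT5 by 9.55 ± 0.30 and SPRR1B by 5.04 ± 0.38 on the log2 scale (adjusted p = 1.17e-08 and 1.93e-06). KRT5 is also a marker of basal airway cells. The basal markers KRT5, KRT14 and TP63 summed to 1955 to 5382 CPM in AALE libraries. They summed to 1.81 to 18.8 CPM in HCC827 and 56.9 to 352 CPM in PC9 libraries, and the part of cell type in these differences was not tested. Line and medium cannot be told apart in this comparison.

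In the resistant lines, H1975 and PC9ER, edgeR tested 8 members and called 4, where 46.1% of genes were called. DHRS3 stood at 3.82, 2.19 and 2.79 CPM in H1975 with control, miR-147b and miR-21 knockdown and at 125, 119 and 40.3 CPM in PC9ER, with a log2 fold change of -4.94 ± 0.50 (SE, n = 3 libraries per line, adjusted p = 0.00129). STRA6 stood at 9.22, 13.2 and 13.2 CPM in H1975 and at 222, 199 and 71.7 CPM in PC9ER, with -3.72 ± 0.53 (adjusted p = 0.00335). RARB stood at 0, 0.129 and 0.0481 CPM in H1975 and at 1.92, 2.06 and 4.98 CPM in PC9ER, with -5.67 ± 0.75 (adjusted p = 0.00281). RDH10 was higher in H1975 by 0.98 ± 0.26 (adjusted p = 0.0246), which rose to between 0.204 and 0.281 without the control or the miR-147b knockdown library of either line. CYP26A1 was at or below 0.38 CPM in all 6 libraries and was not tested. PC9ER had the drug-free PC9 order of these genes, with RARB, STRA6 and DHRS3 high and CYP26A1 near 0 in each PC9ER library.

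**Figure D5:**
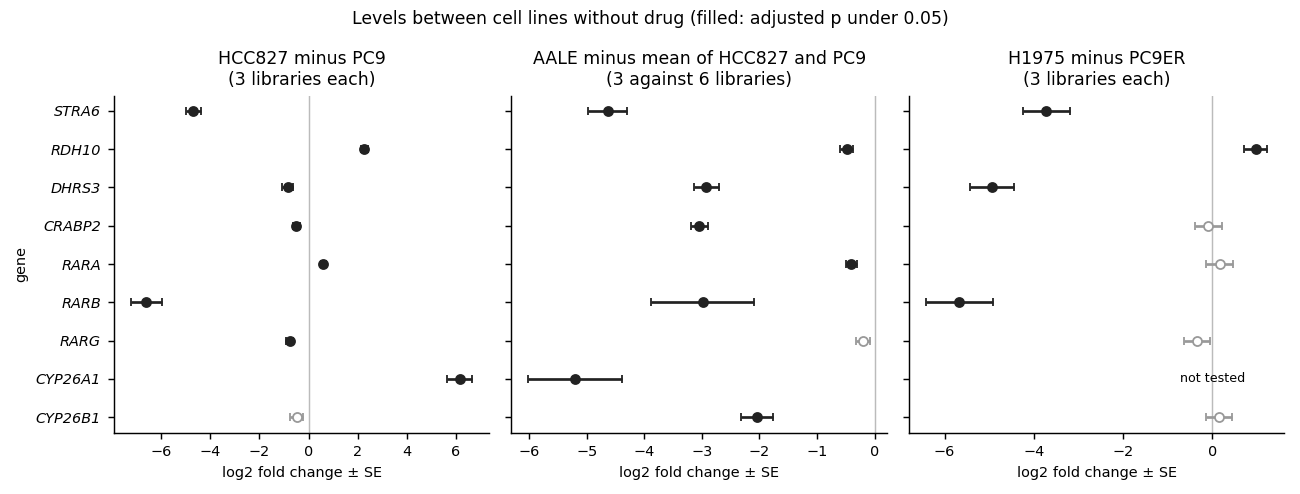
Log2 fold change ± SE of each gene between cell lines without drug, from edgeR, filled points passing an adjusted p of 0.05. CYP26A1 and RDH10 are higher in HCC827 than in PC9, RARB and STRA6 lower, and AALE passes as lower in 8 of 9 genes. For CYP26A1 the HCC827 minus PC9 point is a description.

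Few members differed with either miRNA. MIR147B was listed at 23.0, 13.0 and 2.83 CPM in the miR-147b libraries of AALE, HCC827 and PC9 and at 0 in the other 18 libraries, whereas an mRNA library does not measure mature miRNA. MIR21 was listed at 0 CPM in the miR-21 libraries of AALE, HCC827 and PC9, so whether miR-21 was raised there cannot be seen. Nor can knockdown of either miRNA be seen, with both at 0 CPM in the H1975 and PC9ER libraries. With miR-147b overexpression edgeR called 0 of 9 members (0.00543% of genes, 1 gene), with miR-21 overexpression 0 of 9 (0%), and with either knockdown 0 of 8 (0% each). At an unadjusted p under 0.05 these tests had 828, 171, 146 and 357 genes, and DESeq2 called 7, 1, 26 and 37 genes with 0 members. The miR-147b and miR-21 arms share their control libraries. In single pairs, 1 member passed 2-fold in HCC827 with miR-147b (2.98% of genes in either direction), STRA6 at 10.5 against 3.87 CPM. No member did so in HCC827 with miR-21 (2.14%), in PC9 with miR-147b (2.42%) or miR-21 (2.5%), or in AALE with miR-147b (5.99%) or miR-21 (2.54%). No member did so in H1975 with miR-147b (3.11%) or miR-21 knockdown (3.5%), or in PC9ER with miR-147b knockdown (5.34%).

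PC9ER with miR-21 knockdown was the exception, and it is the library that stood apart from its line mates. STRA6 stood at 222 CPM in the control, 199 in the miR-147b and 71.7 CPM in the miR-21 knockdown library. DHRS3 stood at 125, 119 and 40.3 CPM, CRABP2 at 100, 93.7 and 52.7 CPM and RARA at 47.7, 43.4 and 28.7 CPM. RARB went the other way, at 1.92, 2.06 and 4.98 CPM. By the 2-fold rule on scaled CPM, 4 members were lower (7.58% of genes) and 1 higher (22.3% of genes). By plain library size RARA (log2 ratio -0.73 in place of -1.01) and CRABP2 (-0.93 in place of -1.20) were within 2-fold. In H1975 the 4 lower genes stayed within 2-fold with miR-21 knockdown, STRA6 at 9.22 and 13.2 CPM and DHRS3 at 3.82 and 2.79 CPM, while RARB, on 0 and 1 expected counts, gives no ratio. Without the H1975 miR-21 knockdown library edgeR called 5 of 8 members, STRA6, DHRS3, CRABP2, RARA and RARG but not RARB, and 30.1% of all genes (5595), on the PC9ER pair alone. Whether miR-21 or another property of that 1 library moves these genes was not tested.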

How the data were processed

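RNA-seq of 21 human cell line libraries was used. The submitters' processing notes name Bowtie2, RSEM and GRCh37 for the expected counts of genes that were deposited in 3 tables. No source used here gives their versions or the annotation. A deposited run summary lists 17932024 to 33129732 reads per library and 96.4 to 97.1 percent of bases at quality 30 or more. Before testing, counts were rounded to whole numbers (64.3% of the nonzero values were not whole). Of 210 library pairs 0 were identical, and the 5 controls shared by 2 tables held the same values.

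edgeR 4.0.16 (R 4.3.3) scaled libraries by TMM, filtered with filterByExpr and tested by quasi-likelihood with Benjamini-Hochberg adjustment over all genes at 0.05. Each of the tolerance, overexpression and knockdown experiments had its own fit, with the cell line as a block, or the vector or knockdown as a block between lines. The cell lines, as the labels name them, pair the libraries. DESeq2 1.42.0, RLE size factors, no filter, no block and leaving out each library were alternatives. The fits were tested on simulated counts. Single pairs used a prior count of 2 and the TMM factors of each experiment, also for ratios to the scrambled libraries. Intervals of ratios are exact (95%, conditional binomial) and cover counting error only. Coordinates and exon lengths are from GENCODE 29 on GRCh38, promoter sequences from RefSeq (GRCh38.p14), none of them the authors' build. All 9 members are named in every comparison, with up to 4 genes of a list and the 5 genes most like CYP26A1. Members and lists were chosen with earlier results of these data known. A listed gene is counted with its lists but not reported here.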

Additional observations from a re-analysis of the deposited data

Results flagged for a closer look

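CYP26A1 stood out because every tolerant PC9 library moved up and every tolerant HCC827 library moved down against its parental library, with a log2 difference of -6.81 in HCC827 minus PC9. STRA6 stood out in the same way, with a log2 difference of -4.46. Neither difference was tested, since the contrast was the one that selected the genes. Both lines have 2 tolerant libraries that share 1 parental library, and the parental HCC827 library had the lowest mean correlation to its line mates (0.913). Against the scrambled libraries in place of the parental ones, CYP26A1 had log2 ratios of 3.77 and 4.60 in PC9 and of -2.17 and -2.17 in HCC827, and STRA6 had 0.71 and 0.33 in PC9 and -1.66 and -2.14 in HCC827. These ratios cross experiments that were scaled separately.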

How the results depend on the processing

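No member value past its threshold in a fit or a single pair turned its direction under the alternatives run. By plain library size, CRABP2 in gefitinib-tolerant HCC827 was no longer past 2-fold. Nor were CRABP2 and RARA in PC9ER with miR-21 knockdown. With no filter on low counts edgeR called 47 genes with gefitinib and 137 with osimertinib tolerance, 266 and 77 with miR-147b and miR-21 overexpression, and 29 and 39 with their knockdown. DESeq2 called 1338, 1761, 7 (between the drugs), 7, 1, 26 and 37 genes in the same order. Of the members, RARB was called with either drug without the filter (1 and 1) and in DESeq2 (1 with gefitinib, 2 with osimertinib, CYP26B1 being the other at adjusted p = 0.0458). Without the cell line as a replicate block RARB had adjusted p = 0.971 and 0.914, and miR-147b overexpression called 0 genes. Leaving out each library gave 0 to 3528 genes and 0 to 4 members with gefitinib, 0 to 3933 genes and 0 to 4 members with osimertinib tolerance, the highest without the parental PC9 library. It gave 0 to 3 genes between the drugs, 0 to 14 with miR-147b overexpression, 13 to 134 with miR-147b knockdown and 1 to 5595 with miR-21 knockdown (0 to 5 members, the highest without the H1975 miR-21 knockdown library). Between H1975 and PC9ER it gave 4614 to 12047 genes. The cause of these shifts was not tested. The log2 difference of CYP26A1 between the lines ranged from -7.18 to -6.33 over the libraries left out. Scrambled libraries as the control, and the range of all drug-free libraries, were chosen after seeing the data. CYP26A1 in parental PC9 and RARB in parental HCC827 rest on 4 and 2 expected counts, which limits the precision of their ratios.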
